A study of Mus musculus with 12 samples.

Results

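*Fosb*, *Plk3*, *Trib1*, *Cdkn1a* and *Hspa8* are 5 of the 19161 rows in a gene count table of sorted airway macrophages (AMs). They were chosen by their measured counts, because the effect of genotype on each of them differed between batches 1 to 3 and batch 4 of the RNAseq, so that the genotype effects given here for these 5 genes describe them and carry no test. The RNAseq comprised 12 libraries of AMs from the lungs of 6-week-old female C57BL/6 mice, 6 from *Scnn1b*-Tg mice and 6 from wild-type (WT) littermates. *Scnn1b*-Tg mice overexpress the beta subunit of the epithelial sodium channel under the club cell secretory protein promoter, which is active in airway epithelium and not meant to be active in AMs. Both genotypes had the same treatment: lungs were filled with dispase and agarose and kept in dispase at room temperature, for the same time in all 12 libraries. The cells were then enriched for CD45+ cells on magnetic beads and sorted for live CD45+Siglec-F+CD11c+ cells without stimulation. Batches 1, 2 and 3 held 1 *Scnn1b*-Tg and 1 WT library each (Tg 1 to 3 and WT 1 to 3), and batch 4 held 3 of each (Tg 4 to 6 and WT 4 to 6). The library titles place the batch 4 WT libraries and the batch 4 *Scnn1b*-Tg libraries on different flow cells, so that genotype and flow cell cannot be told apart within batch 4. The labels do not say whether a library came from 1 animal, and the errors below measure the spread between libraries.

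Immediate early genes are transcribed within minutes of a signal, from transcription factors that are already present in the cell, and need no new protein. In macrophages they respond to growth factors, microbial products, mechanical strain and the separation of cells from tissue, and many of their transcripts are short-lived. Stress response genes act alongside them: p53 targets hold the cell cycle, and heat shock proteins keep other proteins folded.

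The 5 genes have different roles. *Fosb* encodes a Fos family transcription factor that pairs with Jun proteins to form AP-1. *Plk3* encodes a polo-like kinase, which is induced by serum and by DNA damage. *Trib1* encodes a pseudokinase that brings C/EBP transcription factors to the ubiquitin ligase COP1 and is needed for the normal development of some tissue macrophages. *Cdkn1a* encodes p21, the cyclin-dependent kinase inhibitor that is a main target of p53. *Hspa8* encodes HSC70, the constitutive member of the HSP70 chaperones.

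On mm10, in the GENCODE M21 annotation, *Fosb* lies at chr7:19302696-19310051 on the minus strand, with 6243 bp of exons. *Plk3* lies at chr4:117128655-117133963 on the minus strand (2531 bp of exons), and the 84 bp at its 3′ end overlap the protein-coding gene *Tctex1d4* on the opposite strand. *Trib1* lies at chr15:59648350-59657099 on the plus strand (6248 bp of exons) and overlaps no other gene. *Cdkn1a* lies at chr17:29090976-29100727 on the plus strand (3553 bp of exons) and shares 1046 bp with an unnamed transcript on the opposite strand. Because counting did not use strand, reads within these overlaps cannot be told apart from those of the genes on the opposite strand. *Hspa8* lies at chr9:40800984-40810087 on the plus strand (4301 bp of exons) and holds 3 small nucleolar RNA genes, *Snord14c*, *Snord14d* and *Snord14e*, within its bounds. HSP70 genes are close relatives and *Hspa8* has processed copies in the genome, so that its counts are uncertain to the extent that reads were shared with them.

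The 250 bases before the RefSeq start site are shown for the genes of the group that have an entry in the promoter table (GRCm38.p6), because the 5 genes were chosen for a joint shift. Each sequence runs 5′ to 3′ on the strand of its gene, and capitals mark the motif matches. *Fosb* has 1 promoter entry, at chr7:19310046-19310295, minus strand:
Fosb: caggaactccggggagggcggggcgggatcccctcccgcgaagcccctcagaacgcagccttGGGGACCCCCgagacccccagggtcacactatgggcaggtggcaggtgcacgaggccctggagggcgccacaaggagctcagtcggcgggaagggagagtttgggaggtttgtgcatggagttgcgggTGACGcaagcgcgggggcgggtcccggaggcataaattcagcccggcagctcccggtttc
The capitals mark a kappaB site on the opposite strand, at bases −188 to −179 from the start site, and a TGACG, the core of a cyclic AMP response element, at −60 to −56. The promoter of *Plk3* lies at chr4:117133964-117134213, minus strand:
Plk3: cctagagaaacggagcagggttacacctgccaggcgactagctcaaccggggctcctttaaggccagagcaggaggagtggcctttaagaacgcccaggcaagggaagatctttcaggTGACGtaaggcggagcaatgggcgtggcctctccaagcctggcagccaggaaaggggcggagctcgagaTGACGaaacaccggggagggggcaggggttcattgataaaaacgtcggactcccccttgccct
It holds 2 matches to TGACG, at −132 to −128 and at −63 to −59. *Cdkn1a* has 2 promoter entries, and the upstream one lies at chr17:29090729-29090978, plus strand:
Cdkn1a: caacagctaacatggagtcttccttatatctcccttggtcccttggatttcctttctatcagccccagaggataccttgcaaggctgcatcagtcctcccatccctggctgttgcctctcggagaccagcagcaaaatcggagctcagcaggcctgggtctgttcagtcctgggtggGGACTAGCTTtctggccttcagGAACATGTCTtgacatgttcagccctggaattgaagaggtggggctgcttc
The capitals mark 2 copies of the p53 decamer, which p53 binds in pairs, at −73 to −64 and at −51 to −42. The downstream promoter of *Cdkn1a* held no match.

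Both strands were searched for 8 motifs, and a match describes letters only. TGACG was present in 17.8% of the 32851 mouse promoters searched in the same way, the p53 decamer in 7.13% and the kappaB site in 3.9%. The full cyclic AMP response element TGACGTCA, which contains TGACG, was in 1.55% of promoters, the AP-1 site TGANTCA in 6.75%, TATAAA in 12.4%, the heat shock element GAANNTTC in 6.69% and the CArG box in 1.47%, and the 4 promoter entries of these genes held no match to them.

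Levels are given as CPM, the count of a row relative to the library total and scaled with TMM factors. In batches 1 to 3 the *Fosb* level was 9.31, 13.5 and 11.3 CPM in Tg 1, Tg 2 and Tg 3, and 11.2, 11.1 and 7.21 CPM in WT 1, WT 2 and WT 3. In batch 4 it was 121, 118 and 134 CPM in Tg 4, Tg 5 and Tg 6, and 37.3, 26.1 and 29.8 CPM in WT 4, WT 5 and WT 6. The genotypes overlapped in batches 1 to 3 and did not overlap in batch 4, where the lowest *Scnn1b*-Tg library was 3.17 times the highest WT library. Both genotypes were higher in batch 4 than any library of batches 1 to 3. The log2 fold change of *Scnn1b*-Tg over WT was 0.23 ± 0.19 (SE) in batches 1 to 3 and 2.00 ± 0.19 in batch 4 (4.01-fold), a difference of 1.78 ± 0.27. The pairs in batches 1, 2 and 3 had log2 ratios of −0.26, 0.29 and 0.65.

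The *Plk3* level in batches 1 to 3 was 48.5, 71.5 and 85.6 CPM in Tg 1, Tg 2 and Tg 3, and 50.7, 66.3 and 103 CPM in WT 1, WT 2 and WT 3. In batch 4 it was 222, 231 and 181 CPM in Tg 4, Tg 5 and Tg 6, and 77.7, 70.3 and 71.1 CPM in WT 4, WT 5 and WT 6. The batch 4 WT libraries lay within the range of batches 1 to 3, and the batch 4 *Scnn1b*-Tg libraries lay above every other library. The log2 fold change was −0.07 ± 0.12 (SE) in batches 1 to 3, with pairs at −0.06, 0.11 and −0.27, and 1.54 ± 0.12 in batch 4 (2.90-fold). The difference was 1.61 ± 0.17.

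*Trib1* was at 101, 52.7 and 53.9 CPM in Tg 1, Tg 2 and Tg 3, and at 124, 55.4 and 76.8 CPM in WT 1, WT 2 and WT 3. In batch 4 it was at 119, 132 and 146 CPM in Tg 4, Tg 5 and Tg 6, and at 50.4, 54.6 and 35.2 CPM in WT 4, WT 5 and WT 6. The 3 batch 4 WT libraries were lower than every WT library of batches 1 to 3, and the 3 batch 4 *Scnn1b*-Tg libraries were higher than every *Scnn1b*-Tg library of batches 1 to 3. In batches 1 to 3 the *Scnn1b*-Tg library was the lower one in 3 of 3 pairs, with log2 ratios of −0.30, −0.07 and −0.51. This was the case for 2328 of the 16972 rows tested. The log2 fold change was −0.29 ± 0.17 (SE) in batches 1 to 3 and 1.50 ± 0.17 in batch 4 (2.83-fold), which is a difference of 1.80 ± 0.24.

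*Cdkn1a* was at 233, 169 and 220 CPM in Tg 1, Tg 2 and Tg 3, and at 237, 197 and 223 CPM in WT 1, WT 2 and WT 3. In batch 4 it was at 130, 127 and 130 CPM in Tg 4, Tg 5 and Tg 6, and at 78.9, 80.3 and 88.5 CPM in WT 4, WT 5 and WT 6. Both genotypes were lower in batch 4 than any library of batches 1 to 3, and the genotypes did not overlap within batch 4. The log2 fold change was −0.09 ± 0.08 (SE) in batches 1 to 3, with pairs at −0.03, −0.23 and −0.02, and 0.64 ± 0.08 in batch 4 (1.56-fold). The difference was 0.74 ± 0.11.

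*Hspa8* had the highest level of the 5 genes. It was at 1580, 1199 and 1952 CPM in Tg 1, Tg 2 and Tg 3, and at 1555, 1318 and 2146 CPM in WT 1, WT 2 and WT 3. In batch 4 it was at 1570, 1453 and 1431 CPM in Tg 4, Tg 5 and Tg 6, and at 940.1, 983 and 883 CPM in WT 4, WT 5 and WT 6. The batch 4 *Scnn1b*-Tg libraries lay inside the range of batches 1 to 3, and the batch 4 WT libraries lay below every other library. The log2 fold change was −0.08 ± 0.07 (SE) in batches 1 to 3, with pairs at 0.02, −0.14 and −0.14, and 0.67 ± 0.07 in batch 4 (1.59-fold). The difference was 0.75 ± 0.10.

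**Figure D1:**
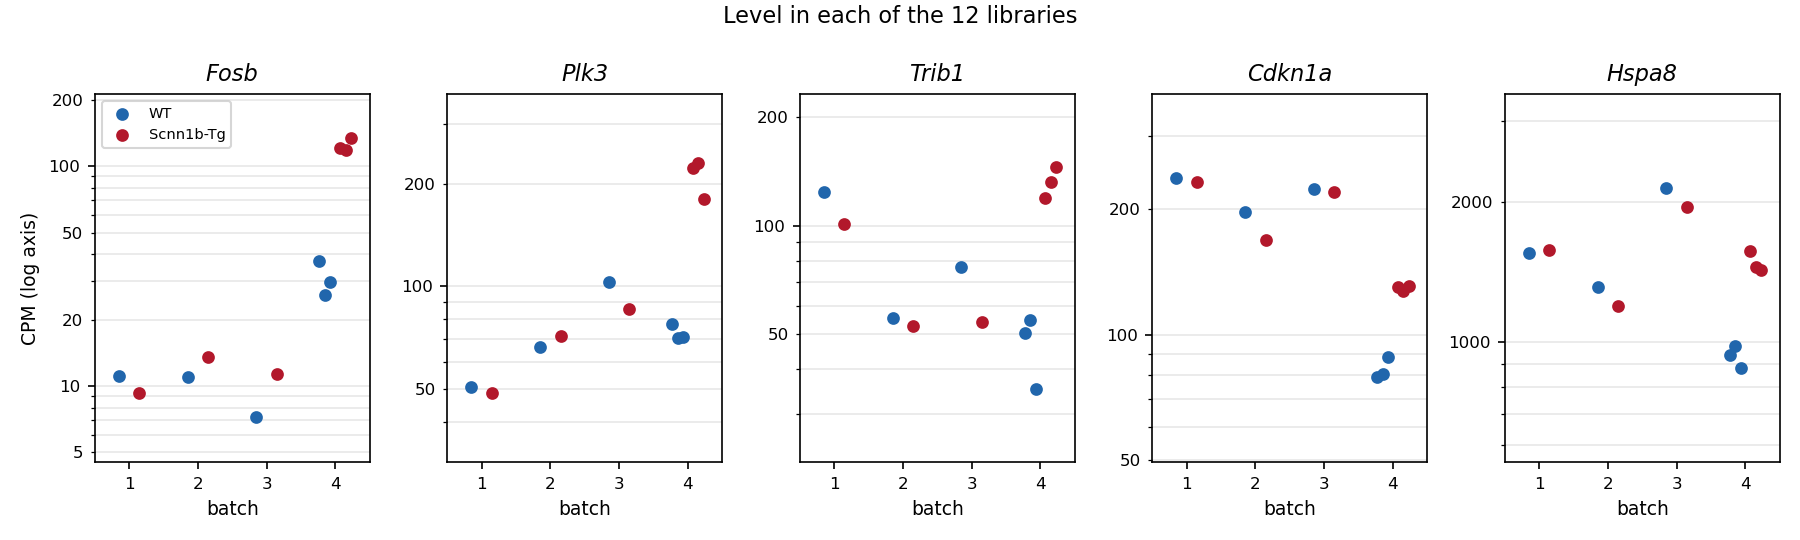
Level of each gene in CPM (log axis) in the 12 libraries, by batch, with 1 point per library in blue for WT and red for *Scnn1b*-Tg. The genotypes separate in batch 4 for each of the 5 genes, and the level of batch 4 against batches 1 to 3 goes up for *Fosb* and down for *Cdkn1a* in both genotypes.

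Set side by side, the batch 4 difference of *Scnn1b*-Tg from WT had different starting points. This compares CPM across sets of batches that may differ in library kit, and genotype goes with flow cell within batch 4. Which genotype moved was therefore not tested. For *Fosb* both genotypes were above the range of batches 1 to 3, and for *Plk3* the *Scnn1b*-Tg libraries alone were above it. For *Trib1* the *Scnn1b*-Tg libraries were higher and the WT libraries lower than in batches 1 to 3. For *Hspa8* the *Scnn1b*-Tg libraries were within the earlier range and the WT libraries below it, and for *Cdkn1a* both genotypes were below it. In these bulk samples, fewer cells of a type and less RNA per cell cannot be told apart. In batches 1 to 3, *Scnn1b*-Tg was above WT in 2 of 3 pairs for *Fosb*, in 1 for *Plk3* and *Hspa8*, and in 0 for *Trib1* and *Cdkn1a*. The 5 genes share these 3 pairs of libraries and were chosen by their values in them, so the counts only describe the genes.

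**Figure D2:**
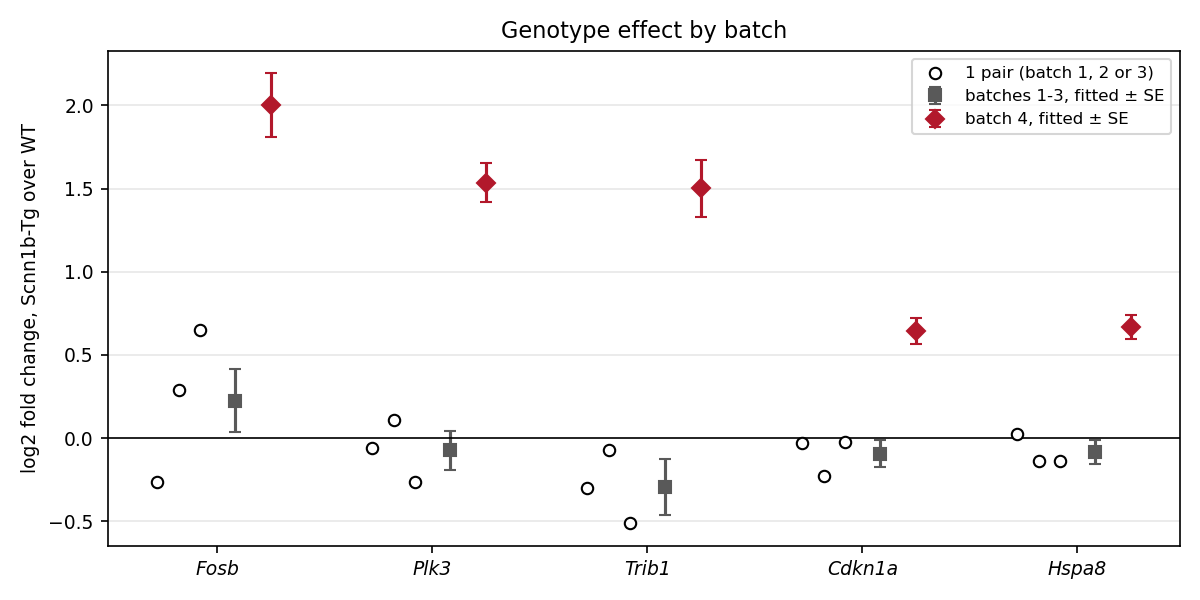
Log2 fold change of *Scnn1b*-Tg over WT for each gene, with open circles for the single pairs of batches 1, 2 and 3 from left to right, grey squares for the fit over batches 1 to 3 and red diamonds for the fit in batch 4, both with SE. Batch 4 values lie between 0.64 and 2.00, and the values fitted over batches 1 to 3 lie between −0.29 and 0.23.

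Each of the 5 genes had its 3 batch 4 *Scnn1b*-Tg libraries above its 3 batch 4 WT libraries, which was the case for 7.55% of the 16972 rows kept by the filter on low counts. The choice of the genes used this contrast, and the count is a description of that choice. The difference between the batches had an adjusted p-value under 0.1 (edgeR) in 19 rows or 0.112% of those tested. The 5 genes are among these rows, and this threshold alone does not pick them out. Of the 5 genes, *Cdkn1a* was nearest to it, with a difference of 0.74 at an adjusted p-value of 0.0961 (edgeR). The nearest row outside it was *Zfp456*, with a difference of −1.99 at 0.124 (edgeR). Over the 12 libraries together, the log2 fold changes were 1.13 ± 0.32 (SE) for *Fosb*, 0.73 ± 0.28 for *Plk3*, 0.61 ± 0.32 for *Trib1*, 0.28 ± 0.13 for *Cdkn1a* and 0.29 ± 0.13 for *Hspa8*, each between its values in the separate sets of batches.

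The level of batch 4 against batches 1 to 3, averaged over the genotypes, includes the batch 4 *Scnn1b*-Tg libraries that the choice of the genes used, and is given without a test. The log2 difference was 2.57 ± 0.33 (SE) for *Fosb*, 0.86 ± 0.28 for *Plk3*, 0.11 ± 0.32 for *Trib1*, −0.43 ± 0.13 for *Hspa8* and −1.04 ± 0.13 for *Cdkn1a*. In the WT libraries alone, the mean *Plk3* level was 73.3 ± 26.9 CPM (SD, n = 3) in batches 1 to 3 and 73.0 ± 4.05 CPM (n = 3) in batch 4, and that of *Fosb* was 9.82 ± 2.26 and 31.1 ± 5.67 CPM. The WT mean of *Trib1* was 85.5 ± 35.2 CPM in batches 1 to 3 and 46.7 ± 10.2 CPM in batch 4, and that of *Cdkn1a* 219 ± 20.1 and 82.6 ± 5.20 CPM. For *Hspa8* the WT mean was 1673 ± 426 and 935 ± 50.5 CPM. Thus the WT means of *Fosb* were higher in batch 4, those of *Trib1*, *Cdkn1a* and *Hspa8* lower, and those of *Plk3* close to each other. Over all rows tested, 49.8% differed in averaged level (edgeR), where a call needed an adjusted p-value below 0.1 together with a log2 change larger than 0.5 in size. The methods describe 2 kinds of library, paired-end and single-end, made with different kits and sequencers. Which library is of which kind is not stated in the labels, and kit, sequencer and batch cannot be told apart.

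Per kilobase of exon, the order of the levels differed between the sets of batches. The median over the 6 libraries of batches 1 to 3 was 364.5 CPM per kb for *Hspa8*, 62.3 for *Cdkn1a*, 27.2 for *Plk3*, 10.6 for *Trib1* and 1.78 CPM per kb for *Fosb*. Of the neighbours in this order, the ranges overlapped only for *Plk3* (19.2 to 40.7) and *Trib1* (8.43 to 19.9). In batch 4 the median was 281 CPM per kb for *Hspa8*, 51.2 for *Plk3*, 30.3 for *Cdkn1a*, 13.9 for *Trib1* and 12.4 CPM per kb for *Fosb*, and the ranges of the 4 lower genes overlapped those of their neighbours. *Plk3* was above *Cdkn1a* per kilobase in 6 of 6 libraries of batch 4 and in 0 of 6 libraries of batches 1 to 3. Counts behind these values lay between 413 and 155760 per gene and library.

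Covariation across single libraries was examined on the deviations of log2 CPM from the fitted levels of batch, genotype and genotype within batch 4, which leaves 6 residual degrees of freedom among the 12 libraries. Over the 10 pairs of these genes, the median Pearson correlation of the deviations was −0.16, with a range from −0.80 (*Trib1* and *Cdkn1a*) to 0.31 (*Trib1* and *Hspa8*), and 3 of 10 were above 0. *Fosb* and *Plk3* correlated at −0.17, *Fosb* and *Trib1* at −0.06, and *Plk3* and *Trib1* at 0.06. All pairs of rows tested had a median of 0.002 and quartiles of −0.31 and 0.32, and 63.4% of them lay above the median of these genes. The points share the library, its depth and its scaling, and within batches 1 to 3 the pair in a batch deviates by equal and opposite amounts by construction. No library deviated in the same direction in all 5 genes.

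Single libraries stood out for single genes. The *Trib1* deviation was −0.38 in WT 6, its largest in size, and 0.25 in WT 5. *Fosb* deviated by 0.28 in WT 4 and by −0.23 in WT 5. *Plk3* deviated by −0.21 in Tg 6, where *Fosb* and *Trib1* deviated by 0.11 and 0.14. The SD of the deviations was 0.25 for *Fosb*, 0.14 for *Plk3*, 0.23 for *Trib1*, 0.071 for *Cdkn1a* and 0.072 for *Hspa8*, against a median of 0.39 over all rows tested. A small SD enters the test of the difference between the batches, for which the genes were chosen, and is no separate result.

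**Figure D3:**
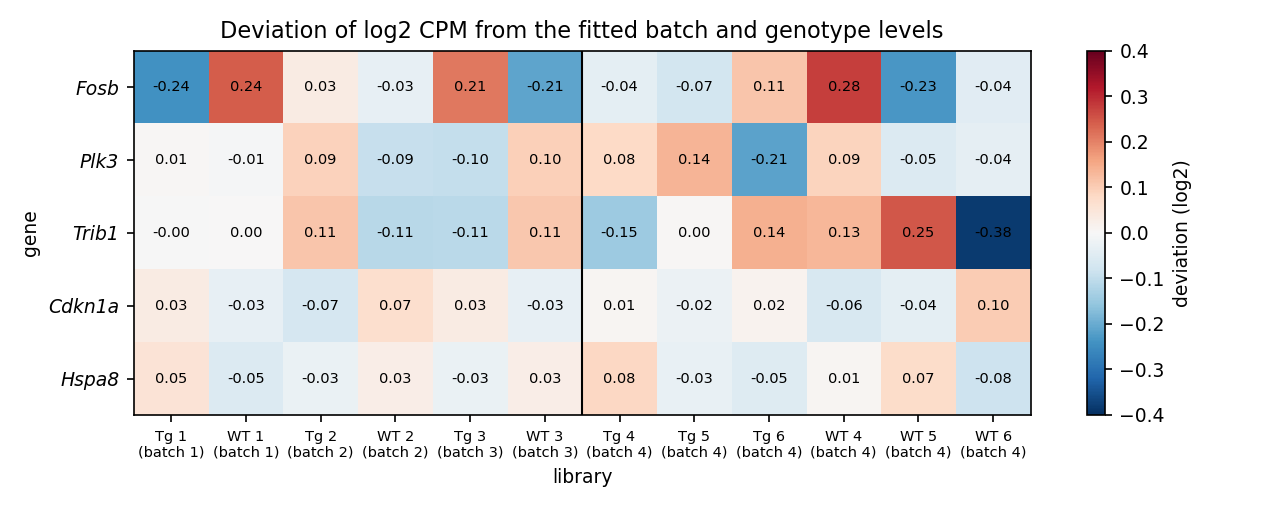
Deviation of log2 CPM (colour and printed value) from the fitted batch and genotype levels, for each gene (vertical axis) in each of the 12 libraries (horizontal axis), with a line before batch 4. Values run from −0.38 to 0.28, and each library holds values above and below 0.

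Among the other genes with a name, those whose deviations correlated most with the 5 genes had mean correlations between 0.197 and 0.225 over the 12 libraries. The 10 highest were *Cdca4*, *Cenpt*, *Fcrla*, *Gm26917*, *Mrpl42*, *Ctsc*, *Rps23-ps2*, *Samd9l*, *Atp6ap1* and *Hps1*. *Cdca4* had a log2 fold change of 0.41 in batches 1 to 3 and 0.16 in batch 4, and *Ctsc*, which encodes cathepsin C, had 0.19 and 0.20. None of the 10 was a member of the immediate early or stress lists below.

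Other genes of the same pathways were taken from 6 lists. Only 1999 of the 19161 rows could be paired with a gene. They are called named genes here, although 1977 of them had a symbol and the others an identifier only. These are genes with small p-values in the genotype comparison of the study itself, so that the counts below are not independent evidence of a direction. As a background, the median log2 fold change over all 1999 named genes was 0.20 in all libraries, 0.14 in batches 1 to 3 and 0.12 in batch 4, and that over all 16972 rows tested was 0.01, 0.01 and 0.00. With the thresholds given for the level, edgeR called a genotype difference in 0.354% of all rows tested. These were 50 rows higher and 10 lower in *Scnn1b*-Tg, all of them among the 1999 named genes. DESeq2 called 1.29% of all rows and 12.4% of the named genes. An unadjusted p-value under 0.05 (edgeR) was found in 8.64% of all rows tested and in 67.3% of the named genes, which is the background for the lists below. In batch 4, 540 of the 1999 named genes had every *Scnn1b*-Tg library above every WT library, and 462 had every one below. In batches 1 to 3, *Scnn1b*-Tg was higher in 3 of 3 pairs in 2565 of all 16972 rows tested and lower in 3 of 3 pairs in 2328.

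Of 37 immediate early genes, 7 had a name (*Atf3*, *Egr2*, *Ier3*, *Mcl1*, *Sgk1*, *Socs3* and *Zfp36*). None was called by genotype with edgeR, 7 of 7 had an unadjusted p-value under 0.05, and DESeq2 called 2, *Atf3* and *Socs3*. Their median log2 fold change was 0.46 over all libraries, 0.20 in batches 1 to 3 and 0.85 in batch 4, and in batch 4 the *Scnn1b*-Tg libraries lay above the WT libraries in 6 of 7.

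*Egr2*, a zinc finger transcription factor, was at 153, 362 and 242 CPM in Tg 4, Tg 5 and Tg 6, and at 105, 105 and 67.4 CPM in WT 4, WT 5 and WT 6. In batches 1 to 3 it was at 107, 11.9 and 105 CPM in the *Scnn1b*-Tg libraries and at 106, 19.9 and 10.5 CPM in the WT libraries. The fold between libraries of one genotype was therefore large before any genotype effect, and the log2 fold changes were 0.73 ± 0.72 (SE) in batches 1 to 3 and 1.45 ± 0.64 in batch 4. *Socs3*, an inhibitor of cytokine signalling, had log2 fold changes of 0.44 ± 0.42 and 1.55 ± 0.41, and *Atf3*, a stress-induced repressor of inflammatory genes, had 0.38 ± 0.19 and 0.84 ± 0.18. *Ier3*, which modulates cell survival, had 0.04 ± 0.14 and 0.88 ± 0.14, with 17.3 to 21.5 CPM in *Scnn1b*-Tg and 9.60 to 10.9 CPM in WT libraries of batch 4. *Mcl1*, a survival factor of the BCL2 family, was the exception of the 7 and is named for its value: its log2 fold change was −0.32 ± 0.15 in batches 1 to 3 and −0.17 ± 0.15 in batch 4.

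Of 14 early inflammatory genes, 8 had a name. None was called by genotype with edgeR, 4 had an unadjusted p-value under 0.05, and DESeq2 called 2, *Ccl3* and *Ptgs2*. The median log2 fold change was 0.86 over all libraries, 0.25 in batches 1 to 3 and 1.99 in batch 4, where 7 of 8 did not overlap and were higher in *Scnn1b*-Tg libraries. *Ptgs2* stays above this median when it is set to the lower bound given below. The genotype effect of *Ccl3* and *Cxcl2* differed between the sets of batches by the same test and threshold that the 5 genes passed.

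*Ccl3*, a chemokine for monocytes and neutrophils, was at 113, 126 and 101 CPM in Tg 4, Tg 5 and Tg 6, and at 24.4, 21.2 and 12.2 CPM in WT 4, WT 5 and WT 6. In batches 1 to 3 it was at 20.5 to 42.3 CPM in *Scnn1b*-Tg and 15.5 to 37.3 CPM in WT libraries, with log2 fold changes of 0.29 ± 0.23 (SE) there and 2.56 ± 0.24 in batch 4. *Cxcl2*, a neutrophil chemokine, was at 20.6, 32.7 and 15.6 CPM in Tg 4, Tg 5 and Tg 6, and at 5.79, 3.84 and 4.01 CPM in WT 4, WT 5 and WT 6. In batches 1 to 3 the *Cxcl2* level was lower in *Scnn1b*-Tg in 3 of 3 pairs, and the log2 fold changes were −0.36 ± 0.29 and, in batch 4, 2.33 ± 0.30. *Cxcl1* and *Ptgs2* were near the detection limit. *Cxcl1* was at 0.615 to 2.71 CPM in batch 4 *Scnn1b*-Tg and 0 to 0.266 CPM in WT libraries. *Ptgs2*, the inducible cyclooxygenase, had 124 counts in the 3 batch 4 *Scnn1b*-Tg libraries and 0 in the 3 WT libraries, which, with a floor of 3 counts over the group, is at least 43.4-fold higher. *Tnf* was not among the genes set to be described and is added after its values were seen: it was at 77.7 to 123.4 CPM in *Scnn1b*-Tg and 26.1 to 46.2 CPM in WT libraries of batch 4, against 11.7 to 20.2 CPM in batches 1 to 3.

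**Figure D4:**
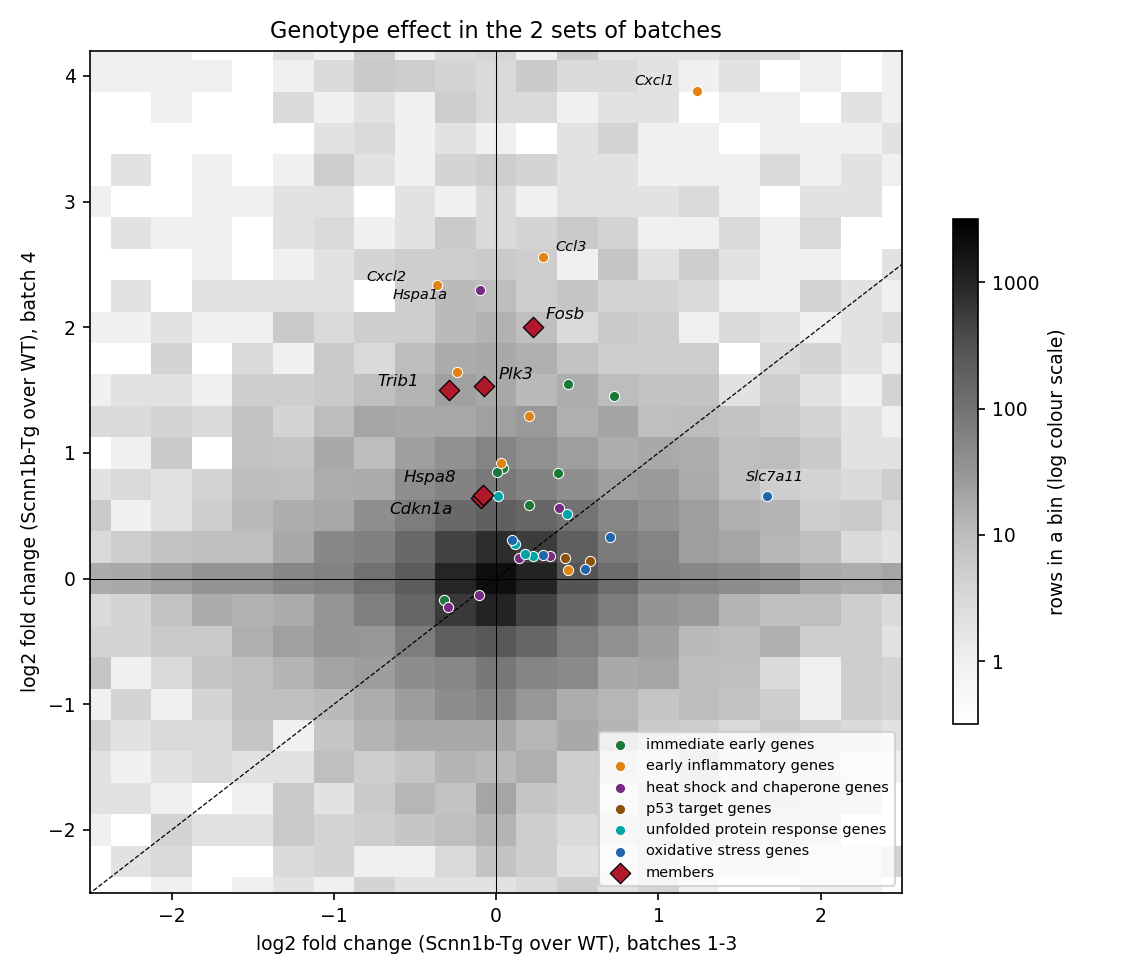
Log2 fold change of *Scnn1b*-Tg over WT in batch 4 (vertical axis) against batches 1 to 3 (horizontal axis), with all rows tested as grey bins (log colour scale), the 5 genes as red diamonds, and the named genes of the 6 lists as coloured points; *Ptgs2* is not drawn and the dashed line marks equal effects. *Fosb*, *Plk3* and *Trib1* lie at 1.50 to 2.00 in batch 4 and near 0 in batches 1 to 3, *Ccl3* and *Cxcl2* lie above them, and *Slc7a11* lies below the line.

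The stress lists were examined in the same way. Of 14 p53 target genes, 2 had a name beside *Cdkn1a*: *Phlda3*, with log2 fold changes of 0.58 ± 0.18 (SE) in batches 1 to 3 and 0.14 ± 0.18 in batch 4, and the death receptor gene *Fas*, with 0.42 ± 0.20 and 0.16 ± 0.20. Both genotypes of *Phlda3* and *Fas* overlapped in batch 4, while those of *Cdkn1a* did not. Neither was called by edgeR or DESeq2, and 1 of the 2 had an unadjusted p-value under 0.05 with edgeR.

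Of 25 heat shock and chaperone genes, 6 had a name, with a median log2 fold change of 0.02 in batches 1 to 3 and 0.17 in batch 4. None was called by either tool, 5 had an unadjusted p-value under 0.05 with edgeR, and in batch 4 4 lay above and 2 below without overlap. *Hspa1a*, the inducible HSP70, was low, at 2.61 to 7.58 CPM in *Scnn1b*-Tg and 0.576 to 1.11 CPM in WT libraries of batch 4, with log2 fold changes of −0.10 ± 0.52 in batches 1 to 3 and 2.29 ± 0.54 in batch 4. *Bag3*, a co-chaperone of HSP70, had 0.33 ± 0.12 and 0.18 ± 0.12. *Hspa4l*, an HSP110 relative, had −0.30 ± 0.11 and −0.23 ± 0.11.

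Relatives of the 5 genes were also examined. Of 17 family members, 5 had a name, 0 were called by edgeR or DESeq2, and 3 had an unadjusted p-value under 0.05 with edgeR. *Trib2*, a second Tribbles gene, was at 0 to 0.410 CPM in *Scnn1b*-Tg and 0.298 to 1.02 CPM in WT libraries of batch 4, against 35.2 to 146 CPM for *Trib1*. *Hspa2* had log2 fold changes of 0.47 ± 0.25 (SE) and 0.55 ± 0.25, and *Hspa5*, which encodes the endoplasmic reticulum HSP70 BiP, had 0.11 ± 0.10 and 0.28 ± 0.10. *Hspa9*, the mitochondrial HSP70, is given for completeness, with −0.11 ± 0.08 and −0.13 ± 0.08, so that named HSP70 genes differed in the sign of their values in batch 4.

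Of 15 unfolded protein response genes, 5 had a name, with medians of 0.18 in batches 1 to 3 and 0.28 in batch 4, and 3 of 5 did not overlap in batch 4. None was called by either tool, and 4 had an unadjusted p-value under 0.05 with edgeR. *Sdf2l1* had log2 fold changes of 0.43 ± 0.17 (SE) and 0.51 ± 0.17, *Herpud1* had 0.01 ± 0.17 and 0.66 ± 0.17, and *Pdia4*, a protein disulfide isomerase, had 0.23 ± 0.13 and 0.18 ± 0.13.

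Of 10 oxidative stress genes, 5 had a name. By edgeR 2 rose and 0 fell, 4 of 5 had an unadjusted p-value under 0.05, and DESeq2 called the same 2. *Hmox1*, which encodes heme oxygenase 1, was at 404, 434 and 262 CPM in Tg 1, Tg 2 and Tg 3 and at 165 to 260.4 CPM in WT 1, WT 2 and WT 3. In batch 4 it was at 140.4, 132 and 153 CPM in *Scnn1b*-Tg and 113, 119 and 106 CPM in WT libraries. *Scnn1b*-Tg was higher in 3 of 3 pairs and, without overlap, in batch 4, and the log2 fold change over all libraries was 0.52 ± 0.08 (SE, adjusted p-value 0.04, edgeR). *Slc7a11*, the cystine transporter, was higher by 1.16 ± 0.22 (adjusted p-value 0.0867, edgeR), with 3 of 3 pairs higher and no overlap in batch 4 (40.6 to 53.1 CPM against 24.97 to 37.5 CPM). The genotype effect of both was the larger one in batches 1 to 3 (*Hmox1* 0.70 ± 0.08 against 0.33 ± 0.08, *Slc7a11* 1.67 ± 0.22 against 0.66 ± 0.21), which is the opposite order to that of the 5 genes, but the difference was not called for either (adjusted p-value 0.631 and 0.627, edgeR).

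Markers and depth were set beside these values. The totals were 65764040 to 121813289 counts in batches 1 to 3 and 40259958 to 51832335 in batch 4. The 8 of 14 airway macrophage markers that had a name (*Siglecf*, *Mrc1*, *Chil3*, *Fabp4*, *Fabp1*, *Ear1*, *Krt79* and *Cd68*) summed to 26540 to 29140 CPM in batch 4 *Scnn1b*-Tg and 26520 to 28670 CPM in batch 4 WT libraries, and to 31460 to 64780 CPM in batches 1 to 3. Most of this sum is *Chil3* (21370 to 24410 CPM in batch 4), and other markers of the list separated the genotypes in batch 4. *Siglecf*, a gene of the sort, was at 395 to 473 CPM in *Scnn1b*-Tg and 528 to 585 CPM in WT libraries, *Mrc1* at 2005 to 2235 and 2521 to 2588 CPM, and *Krt79* at 312 to 385 and 506 to 604 CPM. *Cd68* and *Fabp4* were higher in *Scnn1b*-Tg libraries, at 656 to 755 against 508 to 550 CPM and at 104 to 113 against 85.9 to 95.3 CPM, and the genotypes overlapped for *Chil3*, *Fabp1* and *Ear1*. *Itgax*, which encodes CD11c, had no name here. The 3 of 7 neutrophil markers with a name summed to 55.7 to 71.6 CPM in *Scnn1b*-Tg and 60.3 to 71.9 CPM in WT libraries of batch 4, most of it *Csf3r* (46.1 to 66.2 CPM). *Cxcr2* was at 6.85, 9.41 and 22.5 CPM in Tg 4, Tg 5 and Tg 6 and at 4.83 to 7.11 CPM in the batch 4 WT libraries. *Mmp9* was at 0.187 to 0.378 CPM and at 0 in the same groups, and *Cxcr2* and *Mmp9* were each higher in *Scnn1b*-Tg in 3 of 3 pairs of batches 1 to 3. The 3 of 7 dendritic cell markers summed to 0.80 to 5.42 CPM in *Scnn1b*-Tg and 0.298 to 0.427 CPM in WT libraries of batch 4, and to 2.90 to 86.0 CPM in *Scnn1b*-Tg and 1.26 to 7.59 CPM in WT libraries of batches 1 to 3. *Vcan*, the monocyte marker with a name of 5, was at 0.351 to 1.12 CPM in *Scnn1b*-Tg and 2.36 to 3.23 CPM in WT libraries of batch 4. *Foxj1*, the epithelial marker with a name of 7, was at 0.694 to 1.19 CPM in *Scnn1b*-Tg and 0.25 to 0.403 CPM in WT libraries of batch 4, and *Gzma*, the lymphocyte marker with a name of 5, was at 0 in the 3 *Scnn1b*-Tg libraries of batch 4. No marker of eosinophils (3), B cells (4) or red blood cells (5) had a name. *Scnn1b* itself was at 1.15 to 4.35 CPM in *Scnn1b*-Tg and 0 to 0.297 CPM in WT libraries of batch 4, and in batches 1, 2 and 3 at 72.0, 54.1 and 1.88 CPM in *Scnn1b*-Tg and 11.6, 12.8 and 1.48 CPM in WT libraries, higher in *Scnn1b*-Tg in 3 of 3 pairs. The summed dendritic cell markers, *Mmp9*, *Foxj1* and *Scnn1b* were higher in every batch 4 *Scnn1b*-Tg library than in every batch 4 WT library, and *Vcan* was lower. Of the dendritic cell markers, *Cd209a* alone did so by itself, while *Mgl2* was at 0 in Tg 4 and *Flt3* at 0 in Tg 4 and in the 3 WT libraries. The part of these markers in the values of the 5 genes was not tested.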

How the data were processed

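RNAseq counts of 12 libraries of sorted AMs were analysed. The authors aligned reads to mm10 with HISAT2 in the nf-core pipeline, ignoring strand, and took whole-number gene counts from StringTie and prepDE with a GENCODE annotation; the deposited counts are derived from transcript coverage and are not normalized. Other assays of the study were not used here.

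The rows carry no gene names. A gene's mean normalized count in the study's supplementary table is a weighted sum of its 12 counts. Weights fitted by least squares paired 1999 of 1999 genes with 1 row each (relative difference at most 7.44e-15, tolerance 1e-09, next row at least 2.88e-07 away), and a fit without them returned the same row for 999 of 999 genes. The table's own means served for identity only, and its columns of fold changes and p-values were not used. The other 17162 rows were tested without a name.

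Counts were tested with edgeR 4.0.16 in R 4.3.3 (TMM factors, expression filter, quasi-likelihood test, Benjamini-Hochberg adjustment) with batch as a covariate. The study's methods adjust for the littermate, which was taken here to be the batch of the labels; that this is the same factor is not stated in the labels. An added coefficient gave the genotype effect within batch 4. Log2 CPM used a prior count of 2. SEs are the absolute log2 fold change divided by the square root of F. DESeq2 1.42.0 was an alternative. The scripts were tested on simulated data.

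Library totals were 40259958 to 121813289 counts, and the members' counts of at least 413 keep counting error small beside the spread between libraries. Batches pair the libraries by the labels. Deviations of log2 CPM from the genotype mean correlated at 0.599, 0.622 and 0.453 between the same-batch libraries of batches 1 to 3. These deviations still hold the level difference between batch 4 and batches 1 to 3, and unmatched libraries were not compared, so the values do not test the pairing. Deviations from the fitted batch and genotype levels, a different quantity, correlated at −0.0644, 0.00143 and −0.00582 between libraries of equal number within batch 4. Libraries of the same genotype differed by more than sampling noise in all 30 pairs (chi-square per degree of freedom at least 52.5).

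The 5 genes, the lists and the markers were chosen with earlier results of these data known. Named genes are the 5 members, the called genes of each list or otherwise up to 4 with the largest fold change over all libraries, and the 10 with the most similar deviations; any other gene was chosen after its values were seen. The values of 1 gene that this rule names are not reported here. Promoter sequences are from RefSeq, with entries for 3 of the 5 genes.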

Additional observations from a re-analysis of the deposited data

Results flagged for a closer look

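In the test of the difference in genotype effect (edgeR), batch 4 minus batches 1 to 3, the log2 values were 1.777 for *Fosb*, 1.608 for *Plk3*, 1.796 for *Trib1*, 0.7373 for *Cdkn1a* and 0.7501 for *Hspa8*; these 5 genes were chosen for this difference. *Cxcl2* and *Ccl3* differed in the same way, by 2.697 and 2.266 on the log2 scale, each with a higher *Scnn1b*-Tg level in batch 4.

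Single libraries stood far from the other 5 of their genotype for 4 genes. *Cxcl1* was at 2.712 CPM in Tg 4 and at 1.774 CPM in WT 2, where the nearest other library of the genotype was at 1.004 and 0.266 CPM. *Hspa1a* was at 7.583 CPM in Tg 6, with the nearest at 2.751 CPM, and *Hspa1a* in Tg 4 and Tg 5, at 2.75 and 2.61 CPM, also lay above the batch 4 WT libraries. *Ptgs2* was at 1.438 CPM in WT 2 and at 0 in the other WT libraries, and *Socs3* was at 2.015 CPM in WT 2, with the nearest at 7.953 CPM. These are 5 of 80 groups of 6 libraries examined, and chance would give about 1 in 20 if the 6 libraries were of 1 population, which was not tested for these groups of 4 batches. WT 2 had 3 of the 5.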

How the results depend on the processing

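The genotype effects of the 5 genes in batch 4 kept their sign under every alternative run, including each left-out library, with log2 ranges of 1.89 to 2.16 for *Fosb*, 1.47 to 1.64 for *Plk3*, 1.34 to 1.63 for *Trib1*, 0.61 to 0.70 for *Cdkn1a* and 0.63 to 0.70 for *Hspa8*. The 5 genes were chosen on this effect, and their genotypes do not overlap in batch 4. Leaving out 1 library could therefore not turn the sign, and the kept sign is no separate result. The values of *Fosb* and *Plk3* in batches 1 to 3 lay close to 0 and spanned it with 1 library left out (−0.006 to 0.454 and −0.191 to 0.0044). Of the alternative values for the 5 genes, 290 stayed within the spread between replicates and 15, each of them a fold change over all libraries, did not. The 60 rows that differed by genotype became 248 with DESeq2, 28 with a replicate block of 6 pairs and 0 with no replicate block, where 337 rows had an unadjusted p-value under 0.05 (edgeR). With batches 1 to 3 only, a choice made after seeing the data, 0 rows were called by edgeR, and 1009 had an unadjusted p-value under 0.05. With 1 library left out the count was 22 (without Tg 1) to 53 (without Tg 5). Without the block, the log2 fold changes of *Fosb*, *Plk3* and *Cdkn1a* over all libraries were 1.73, 0.94 and 0.15. The 19 rows whose genotype effect differed between the sets of batches became 11 with no filter on low counts and 237 with DESeq2, and 6 (without WT 5) to 42 (without Tg 6) with 1 library left out. The count of rows that differed in level was 7948 to 8462 with 1 library left out, and the median correlation of the deviations −0.241 to −0.139. The cause of these changes was not tested. Leaving out 1 library of batches 1 to 3 removes its batch from the genotype contrast, so that batches 1 to 3 rest on 2 pairs there.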

Other observations

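Of the 19 rows whose genotype effect differed between the sets of batches, 14 had a gene name, and 7 of these are neither among the 5 genes nor in the lists. They are named after their values were seen. In batches 1 to 3, *Ptger4*, a receptor for prostaglandin E, was at 19.5 to 26.3 CPM in *Scnn1b*-Tg and 0.249 to 0.672 CPM in WT libraries, and in batch 4 at 37.8 to 62.6 and 18.1 to 40.1 CPM (difference of log2 fold changes −5.03 ± 0.51, SE, adjusted p-value 0.0149, edgeR). *Rftn1*, a lipid raft protein gene, was at 8.86 to 14.9 CPM in *Scnn1b*-Tg and 83.5 to 109.7 CPM in WT libraries of batches 1 to 3, and at 93.2 to 105 and 94.1 to 103 CPM in batch 4. *Mgat1*, which encodes an enzyme of N-glycan synthesis, was at 3.51 to 10.7 and 166 to 185 CPM in batches 1 to 3 and at 15.6 to 51.0 and 12.7 to 16.3 CPM in batch 4. *Mia3* had log2 fold changes of −1.21 ± 0.15 (SE) and 0.13 ± 0.14. In these 4 genes the larger genotype effect was in batches 1 to 3.

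In *Dcun1d1*, *Rps13-ps5* and *Ube2w* the larger effect was in batch 4. *Dcun1d1* was at 39.4 to 43.3 CPM in *Scnn1b*-Tg and 11.8 to 14.1 CPM in WT libraries of batch 4, and at 52.7 to 65.6 CPM in batches 1 to 3. *Rps13-ps5*, a ribosomal pseudogene whose reads can be shared with its parent gene, was at 9.13 to 14.9 and 0.483 to 0.557 CPM in batch 4. *Ube2w* was lower in batch 4 *Scnn1b*-Tg libraries, at 6.12 to 10.9 against 29.6 to 30.9 CPM.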
